A study of Arabidopsis thaliana with 12 samples.

Results

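The genes described here are those whose leaf transcript was lower in the condition H than in the condition L in both the ape2 mutant and its Ws-2 background, with little difference between the genotypes themselves. They are 66 of 22746 probe sets (the sets of short probes that each measure 1 transcript on the array), and 9739 of all probe sets were bright enough to be considered. Each had a mean signal of 50 or more over the 12 arrays, a change of H minus L of -0.4 or lower in each genotype on the log2(signal + 10) scale, and a mean difference of ape2 minus Ws-2 between -0.3 and 0.3. The cold-regulated genes COR15A, COR15B and COR47, the expansin gene EXPA8, the IQD genes and 1 probe set without a gene name were left out by name, and of these COR15B and the unnamed probe set met the rule. The members were thus chosen by their H minus L values and their mean genotype difference, and these values, with every count of calls on them, describe the members and support nothing further.

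By its title, the study examined a mutant of TPT, which is the carrier that moves triose phosphates out of chloroplasts in exchange for phosphate. The 4 groups were ape2 in H, ape2 in L, Ws-2 in H and Ws-2 in L, with 3 arrays each. Both lines were Arabidopsis thaliana, and ape2 carries a T-DNA insert in the Ws-2 background. RNA came from mature rosette leaves that had not been shaded, at developmental stage 3.7. The meaning of the letters L and H is not stated, so they serve as names only. No source used here gives pooling, the number of plants or a separate origin of the replicates, so p-values rest on a spread between arrays that may be technical.

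In leaves, triose phosphates made by photosynthesis leave the chloroplast through TPT and become sucrose, which is then loaded into the phloem for export. SWEET proteins export sucrose from cells on that route. Pectin, a gel-forming wall polymer, is cut by pectate lyases and demethylated by pectin methylesterases, while expansins loosen the contacts between wall polymers.

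The 12 arrays agreed closely, with Pearson correlations over the probe sets tested of 0.97 to 0.99 within groups and 0.95 to 0.98 between groups. Replicate 2 of ape2 in L and replicate 2 of ape2 in H stood highest on the leading component of the spread within groups, and the mean level of the 66 members was lowest there within their groups. The platform annotation names no probe set for TPT, and the mutant's label could not be set against its transcript. Of the cell-type markers with a probe set named, the mean signal was 4066 for RCA, the Rubisco activase of green leaf cells, 51.0 for FAMA and 4.22 for SPCH, both regulators of the guard-cell lineage, 19.9 for the root-hair expansin EXPA7, and 52.8 for AUR1, a kinase of dividing cells. Signals of different probe sets are not on a common scale. The ratio of 3′ to 5′ signal of the GAPDH control, a sign of RNA quality, averaged 1.77 in ape2 H against 1.87 in ape2 L, and 1.86 in Ws-2 H against 2.05 in Ws-2 L, and its ranges overlapped between conditions. The actin ratio averaged 3.70 in ape2 H against 4.03 in ape2 L, and 4.14 in Ws-2 H against 4.25 in Ws-2 L, and the part of RNA quality in the falls was not tested.

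Over the 66 members, the median change of H minus L was -0.61 in ape2 (range -1.05 to -0.40) and -0.56 in Ws-2 (range -1.37 to -0.40), beside medians of -0.03 and 0.00 over all probe sets tested. On the signal scale, the H mean was a median 63.7% of the L mean in ape2 and 65.8% in Ws-2. Only AT5G05250 was at least 2-fold lower in both genotypes on the log2(signal + 10) scale. In these whole-leaf samples, fewer cells of a type and less RNA per cell cannot be told apart. The fall was larger in ape2 for 40 members and larger in Ws-2 for 26. Over all 16095 probe sets tested, the change was lower in ape2 than in Ws-2 for 8662, and nothing is read from the members' count. For 60 members, the 3 arrays of H all lay below the 3 of L in both genotypes, as they did for 3.52% of all probe sets tested. The groups of AT2G43590 and EXPB1 met in ape2, and those of AT2G15960, AT1G33600, BRH1 and 254098_at in Ws-2. At an adjusted p under 0.05 in limma, 56 members were lower in ape2 (2.24% of all probe sets tested) and 53 in Ws-2 (1.91%), and 47 in both (0.882%). The rule chose members on these contrasts, so the counts say nothing beyond it.

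**Figure D1:**
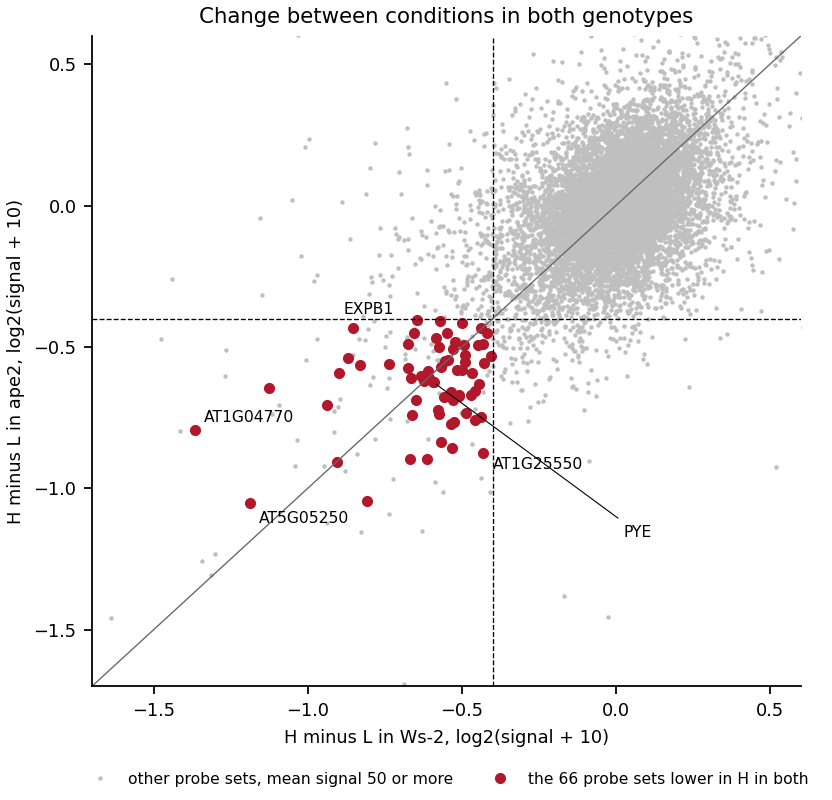
Change of H minus L on the log2(signal + 10) scale in ape2 (vertical) against Ws-2 (horizontal) for probe sets with a mean signal of 50 or more; red points are the 66 members, dashed lines mark -0.4, the grey line marks equal changes, and 105 probe sets lie beyond the axes, which run from -1.7 to 0.6. Members lie on both sides of the line of equal change, and grey points in the same corner were left out by name or differ between the genotypes by over 0.3.

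The annotation names 1 gene for 29 of the members and none for 37, and 5 of the 29 carry a gene symbol: EXPB1, PYE, BRH1, SWEET13 and BGLU33. The order by role that follows was made with the members known, rests on a few genes each and was not tested as a theme.

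The first 3 genes are known from mineral nutrition. AT1G04770 encodes a tetratricopeptide-repeat protein of the family induced by sulfur deficiency. Its signals were 76.6, 172 and 103 in ape2 H, against 229, 190.3 and 184 in ape2 L, and 84.0, 57.5 and 79.1 in Ws-2 H, against 203, 192 and 216 in Ws-2 L. The groups did not overlap, though replicate 2 of ape2 in H lay far above the other two. The change of H minus L was -0.80 ± 0.21 in ape2 and -1.37 ± 0.21 in Ws-2 (SE, n = 3 arrays a group). Without that array the change in ape2 was -1.09, and over all alternative settings it ran from -1.12 to -0.55. With all arrays the fall in ape2 was not called by limma (adjusted p = 0.0602). AT1G04770 no longer met the rule without replicate 1 of ape2 in H or without replicate 1 of Ws-2 in H.

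PYE is a basic helix-loop-helix factor that regulates the response of plants to iron deficiency. It read 115, 98.3 and 135 in ape2 H, against 173, 173 and 203 in ape2 L, and 114, 108 and 126 in Ws-2 H, against 194, 162 and 183 in Ws-2 L. Every H array was below every L array, and the levels of the genotypes lay together in each condition. The H mean was 63.3% in ape2 and 64.3% in Ws-2 of the L mean. Other bHLH genes were looked for by that symbol only, so those under other names, as PYE is, were missed. None of the 4 tested, bHLH34, bHLH104, bHLH115 and bHLH121, was called by limma, and at an unadjusted p under 0.05 there was 1 higher in each genotype.

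AT1G25550 belongs to the GARP-type repressors that nitrate induces. Signals were 72.9, 83.9 and 81.3 in ape2 H, against 139, 165 and 158 in ape2 L, and 97.1, 93.0 and 120.4 in Ws-2 H, against 131, 141 and 155 in Ws-2 L. The H arrays were below the L arrays in both genotypes, and those of ape2 in H were the lowest of all. The change was -0.87 ± 0.11 in ape2 and -0.43 ± 0.11 in Ws-2 (SE). Its relative AT1G68670, which is no member, averaged 154 in ape2 H against 246 in ape2 L, and 207 in Ws-2 H against 229.5 in Ws-2 L. Its change was -0.64 ± 0.09 in ape2 (SE, adjusted p = 7.83e-04) and -0.14 ± 0.09 in Ws-2 (SE, adjusted p = 0.560) in limma, and the difference between these changes was -0.50 ± 0.13 (SE, adjusted p = 0.282).

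Other members act on the cell wall. AT5G11420, a DUF642 protein of the wall, had signals of 549, 478 and 503 in ape2 H, against 899.6, 786 and 886 in ape2 L, and 632, 697 and 662 in Ws-2 H, against 1007, 971 and 1001 in Ws-2 L. Groups were well apart in both genotypes, and the change was -0.74 ± 0.07 in ape2 and -0.58 ± 0.07 in Ws-2 (SE). The mean genotype difference of AT5G11420, -0.29, lay near the limit, and it met the rule in 7 of the 12 omissions of a single array. Of the 2 other DUF642 genes tested, AT3G08030 changed by -0.32 ± 0.07 in ape2 (SE, adjusted p = 0.0120) and -0.05 ± 0.07 in Ws-2 (SE, adjusted p = 0.818) in limma, with a difference between the changes of -0.27 ± 0.09 (SE, adjusted p = 0.489). AT4G32460 was called in neither genotype.

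AT5G63180 and AT4G24780 are pectate lyase-like genes. AT5G63180 had signals of 230.3, 168 and 214 in ape2 H, against 331, 364 and 363 in ape2 L, and 220.1, 268 and 182 in Ws-2 H, against 332, 304 and 338 in Ws-2 L. AT4G24780 had 888, 728 and 891 in ape2 H, against 1244, 1194 and 1183 in ape2 L, and 988, 1124 and 977 in Ws-2 H, against 1375, 1311 and 1406 in Ws-2 L. Neither gene showed any overlap between H and L in either genotype, and their changes were -0.77 in ape2 and -0.53 in Ws-2 for the first and -0.53 in ape2 and -0.40 in Ws-2 for the second. Also in pectin metabolism, AT5G62350, of the family of invertase and pectin methylesterase inhibitors, read 728, 545 and 730.2 in ape2 H, against 1261, 854 and 998 in ape2 L, and 578, 582 and 545 in Ws-2 H, against 888, 784 and 915 in Ws-2 L. The H mean was 64.4% in ape2 and 65.9% in Ws-2 of the L mean. AT3G10720, a pectin methylesterase gene, changed by -0.67 in ape2 and -0.51 in Ws-2, with a mean signal of 103. Its fall in Ws-2 was not called by limma (adjusted p = 0.0548).

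EXPB1, a beta-expansin, had signals of 88.4, 55.9 and 86.3 in ape2 H, against 103, 88.4 and 128 in ape2 L, and 46.8, 49.8 and 54.2 in Ws-2 H, against 95.6, 108 and 93.4 in Ws-2 L. In Ws-2 the H arrays lay far below the L arrays, whereas in ape2 the groups met at a signal of 88.4. The change was -0.43 ± 0.15 in ape2 (SE, adjusted p = 0.129 in limma) and -0.85 ± 0.15 in Ws-2 (SE). Without replicate 2 of ape2 in H it was -0.24 in ape2, and EXPB1 met the rule in only 6 of the 12 omissions of a single array. Of the 3 other beta-expansins tested, limma called 0, and at an unadjusted p under 0.05 there was 1 higher in ape2 and 0 in Ws-2. Of 17 wall-loosening genes tested, which include EXPB1, EXPA8 and EXPA15 were called lower in ape2, and EXPA8 and EXPB1 in Ws-2, and their median changes were -0.12 in ape2 and -0.03 in Ws-2.

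**Figure D2:**
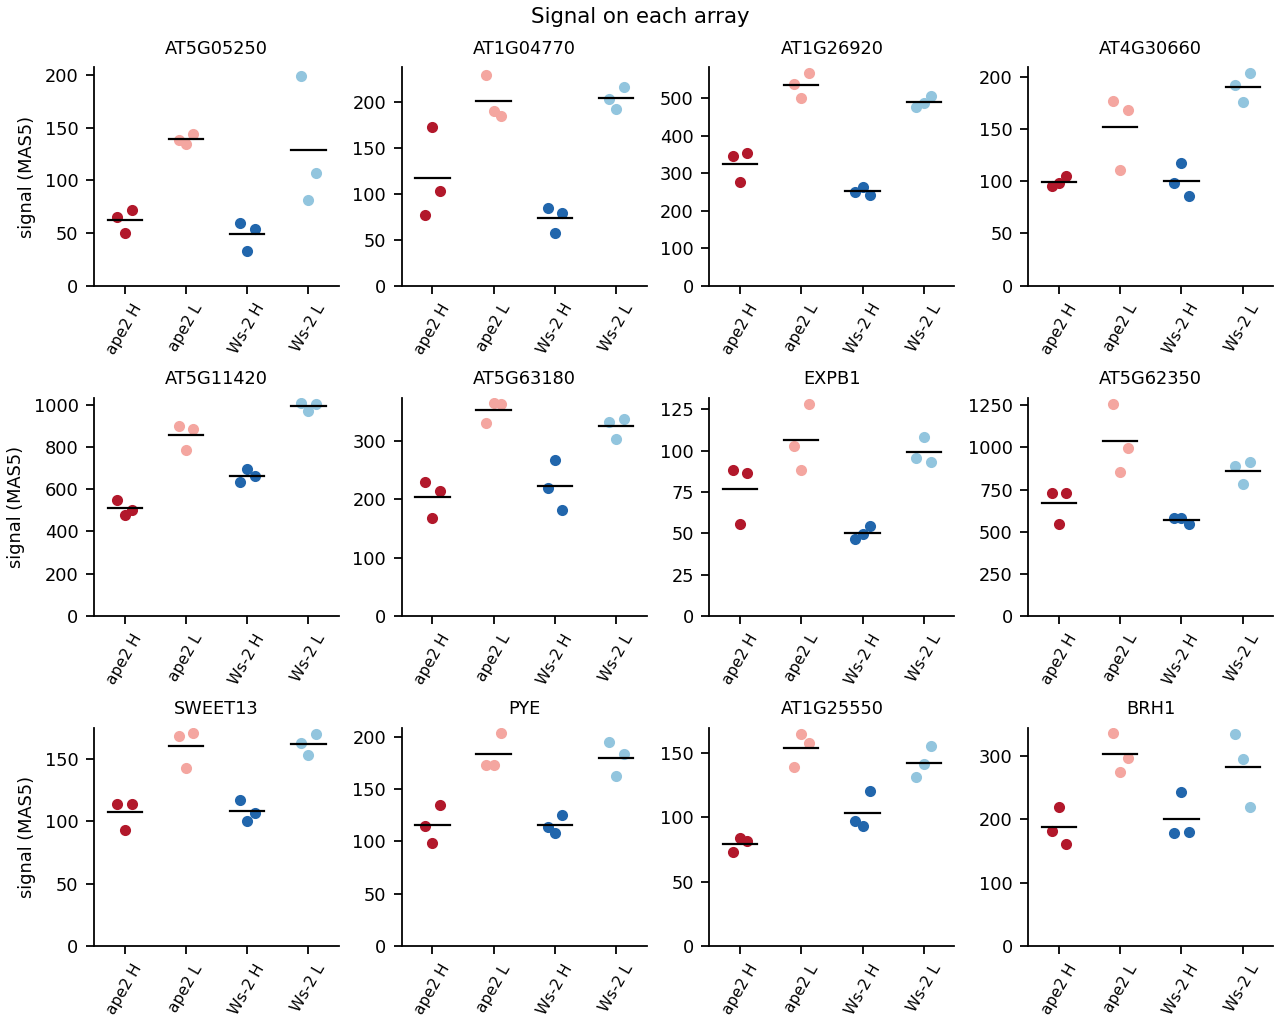
Deposited signal (vertical, linear from 0) on each array for 12 members; points are arrays in the order ape2 H, ape2 L, Ws-2 H and Ws-2 L, and black bars are group means of 3 arrays. PYE and SWEET13 sit at like levels in both genotypes, while 1 ape2 H array of AT1G04770 stands at 172 and 1 Ws-2 L array of AT5G05250 at 199.

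Transport and membrane genes were a further set. SWEET13 is a sucrose exporter that takes part in phloem loading in leaves. It read 114, 93.1 and 114 in ape2 H, against 168, 142 and 171 in ape2 L, and 116, 100.3 and 107 in Ws-2 H, against 163, 153 and 169.6 in Ws-2 L. All H arrays were below all L arrays, and the changes were -0.54 ± 0.10 in ape2 and -0.54 ± 0.10 in Ws-2 (SE). Of the 13 other SWEET genes tested, 0 were called lower by limma and 1, SAG29, was called higher in each genotype. At an unadjusted p under 0.05, 3 were lower in ape2 and 1 in Ws-2, and the median changes of the 13 were -0.07 in ape2 and 0.02 in Ws-2. SWEET11, a further sucrose exporter known in phloem loading, had a mean signal of 893 and changed by -0.20 ± 0.06 in ape2 (SE, adjusted p = 0.0965) and -0.10 ± 0.06 in Ws-2 (SE, adjusted p = 0.562).

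AT4G30660 encodes a small membrane protein of the RCI2 type, a family known for responses to low temperature and salt. Signals were 95.8, 97.9 and 105 in ape2 H, against 177, 110.5 and 168 in ape2 L, and 98.3, 117 and 85.8 in Ws-2 H, against 192, 176 and 203 in Ws-2 L. Replicate 2 of ape2 in L, at 110.5, was close to the ape2 H arrays, which it still exceeded. The change was -0.54 ± 0.14 in ape2 and -0.87 ± 0.14 in Ws-2 (SE). The next gene in the RefSeq gene order of assembly TAIR10.1 is AT4G30650, of the same type, with means of 211 in ape2 H against 282 in ape2 L, and 113 in Ws-2 H against 208 in Ws-2 L. It changed by -0.39 ± 0.12 in ape2 (SE, adjusted p = 0.0866) and -0.82 ± 0.12 in Ws-2 (SE, adjusted p = 0.00131). The fall in Ws-2 passed limma's threshold, and the difference between the changes was 0.43 ± 0.17 (SE, adjusted p = 0.580).

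Secreted enzymes included AT1G29660 and AT1G29670, a pair of GDSL-type lipase genes that are direct neighbours in the same gene order. AT1G29660 had 451, 336 and 449 in ape2 H, against 634, 692 and 785 in ape2 L, and 509, 489 and 481 in Ws-2 H, against 701, 702 and 739.9 in Ws-2 L. AT1G29670 had 583, 508 and 664 in ape2 H, against 864, 759 and 804 in ape2 L, and 508, 580.1 and 574 in Ws-2 H, against 735, 813 and 969.9 in Ws-2 L. In both genes H lay wholly below L, with changes of -0.76 in ape2 and -0.53 in Ws-2 for AT1G29660 and -0.47 in ape2 and -0.58 in Ws-2 for AT1G29670. AT1G31690, of the copper amine oxidase family, changed by -0.74 in ape2 and -0.66 in Ws-2. AT2G43590, a chitinase family gene, changed by -0.69 in ape2 and -0.65 in Ws-2, and its ape2 groups overlapped, since 1 H array read 62.3 and 1 L array 58.9. Limma called AT2G43590 in neither genotype (adjusted p = 0.0738 in ape2 and 0.122 in Ws-2). None of the 3 other chitinase genes tested from its neighbourhood was called by limma, and 0 had an unadjusted p under 0.05. BGLU33, a beta-glucosidase gene, read 58.5, 51.6 and 57.2 in ape2 H, against 84.5, 87.6 and 82.3 in ape2 L, and 67.8, 76.4 and 58.6 in Ws-2 H, against 108, 91.1 and 97.2 in Ws-2 L. Its change was -0.53 in ape2 and -0.49 in Ws-2, and 0 of the 7 other BGLU genes tested were called by limma, with 1 lower at an unadjusted p under 0.05 in each genotype.

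Some members have other known roles. BRH1, a RING-H2 protein that responds to brassinosteroids, read 182, 220.2 and 160.4 in ape2 H, against 336, 275 and 297 in ape2 L, and 178, 243 and 179.9 in Ws-2 H, against 334, 295 and 219 in Ws-2 L. Its Ws-2 groups overlapped, because 1 H array stood at 243 and 1 L array at 219, and limma did not call BRH1 in Ws-2 (adjusted p = 0.153). AT3G16800, a protein phosphatase of the PP2C family, changed by -0.49 in ape2 and -0.67 in Ws-2. In ape2 it was not called by limma (adjusted p = 0.0522). AT1G33600 and AT5G12940 encode leucine-rich repeat proteins and changed by -0.69 in ape2 and -0.53 in Ws-2, and by -0.58 in ape2 and -0.61 in Ws-2. Limma called AT5G12940 in neither genotype (adjusted p = 0.0559 in ape2 and 0.0562 in Ws-2). It did not call AT1G33600 in Ws-2 (adjusted p = 0.0689). AT5G48540, with a DUF26 domain, changed by -0.58 in ape2 and -0.50 in Ws-2. AT5G44680, of the DNA glycosylase family of repair enzymes, changed by -0.57 in ape2 and -0.57 in Ws-2.

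The largest mean fall belonged to AT5G05250, which has no symbol in the files. Its signals were 64.9, 50.2 and 71.8 in ape2 H, against 138, 135 and 144 in ape2 L, and 59.9, 32.6 and 53.5 in Ws-2 H, against 199, 81.2 and 107 in Ws-2 L. The ape2 L arrays lay close together, whereas the Ws-2 L arrays ranged from 81.2 to 199. The change was -1.05 ± 0.26 in ape2 and -1.19 ± 0.26 in Ws-2 (SE), and without replicate 1 of Ws-2 in L the change in Ws-2 was -0.85. AT5G05250 met the rule in 9 of the 12 omissions of a single array. Its limma call was lost in 14 of 22 alternative settings in ape2 and in 8 of 22 in Ws-2. AT1G26920, also without a symbol, read 347, 276 and 355 in ape2 H, against 539, 500.5 and 567 in ape2 L, and 250.0, 263 and 242 in Ws-2 H, against 477, 487 and 508 in Ws-2 L. All H arrays lay far below the L arrays, with ape2 above Ws-2 in H, and the change was -0.71 ± 0.09 in ape2 and -0.94 ± 0.09 in Ws-2 (SE). AT2G15960, AT5G12050 and AT2G19460 also fell within the rule without a symbol, with changes in ape2 of -0.56, -0.61 and -0.48 and in Ws-2 of -0.74, -0.67 and -0.52. The DUF506 gene AT2G20670 changed by -0.76 in ape2 and -0.46 in Ws-2, and the DUF1645 gene AT3G62630 by -0.56 in ape2 and -0.49 in Ws-2. Limma did not call AT2G15960 in ape2 (adjusted p = 0.112) or AT3G62630 in Ws-2 (adjusted p = 0.107). AT2G19460 was called in neither genotype.

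**Figure D3:**
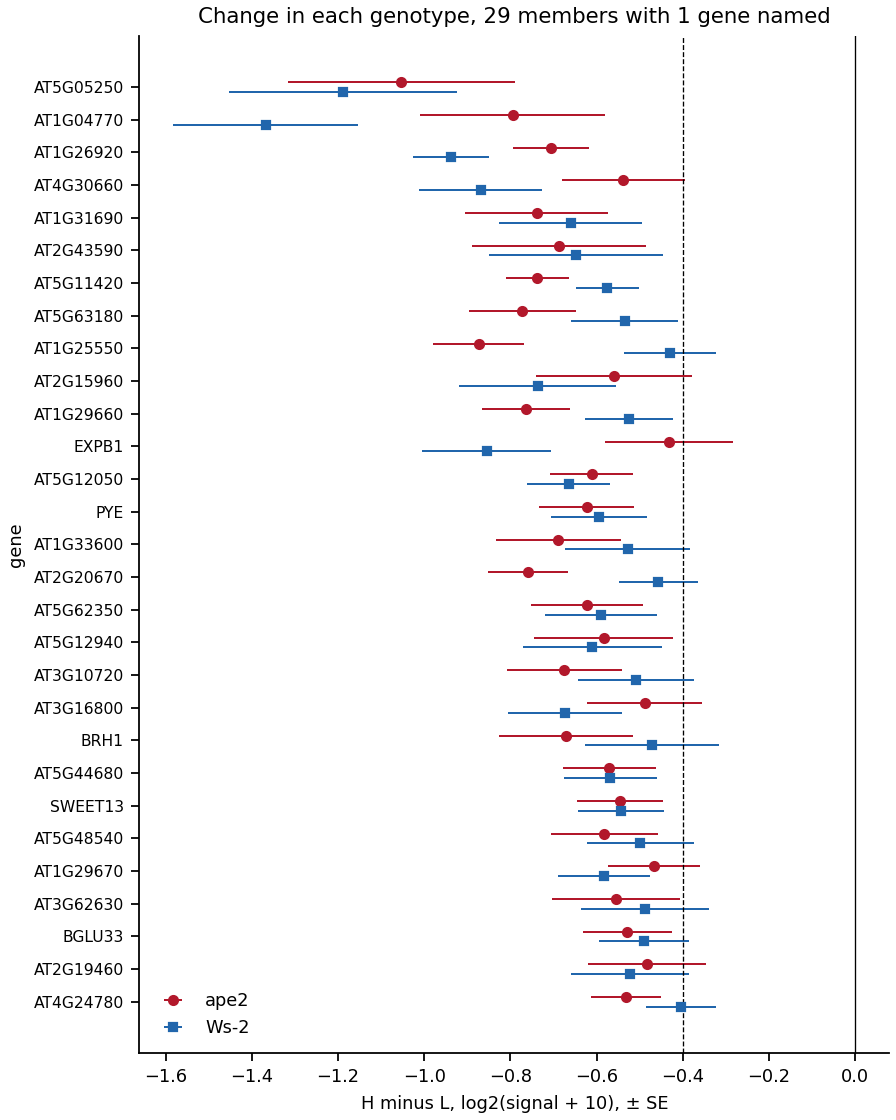
Change of H minus L (horizontal, log2(signal + 10)) with its standard error in ape2 (red circles) and Ws-2 (blue squares) for the 29 members with 1 gene named, ordered by mean fall; the dashed line marks the limit of -0.4. The pairs of points lie close for PYE, AT5G44680 and SWEET13 and far apart for AT1G04770, AT1G25550 and EXPB1.

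Among the 37 members without a gene name, 252374_at had the largest mean fall, with signals of 62.4, 69.8 and 49.2 in ape2 H, against 145, 116 and 144 in ape2 L, and 46.0, 51.0 and 66.5 in Ws-2 H, against 109, 99.2 and 97.4 in Ws-2 L. The change was -1.05 ± 0.13 in ape2 and -0.81 ± 0.13 in Ws-2 (SE). Next came 257516_at, with 48.0, 39.5 and 38.5 in ape2 H, against 84.7, 88.6 and 88.2 in ape2 L, and 32.7, 41.9 and 41.5 in Ws-2 H, against 79.7, 85.3 and 77.5 in Ws-2 L. Its changes in the genotypes were nearly equal, at -0.91 in ape2 and -0.90 in Ws-2. The probe set 248270_at read 407, 409.8 and 487 in ape2 H, against 639, 683 and 734 in ape2 L, and 309, 293 and 362 in Ws-2 H, against 805, 635 and 701 in Ws-2 L. There the H arrays of ape2 were all above those of Ws-2, while the L arrays overlapped. The probe set 259466_at had 248, 248 and 248 in ape2 H, against 508, 415 and 496 in ape2 L, and 294, 320.2 and 353 in Ws-2 H, against 523, 480.3 and 549 in Ws-2 L. In H the ape2 arrays lay within 1 signal unit of each other and below every Ws-2 array. Over the 37, the median change was -0.59 in ape2 (range -1.05 to -0.40) and -0.55 in Ws-2 (range -1.12 to -0.42), and H and L did not overlap in either genotype for 36 of them. Over the 29 with 1 gene the medians were -0.62 in ape2 and -0.58 in Ws-2, and 24 did not overlap, beside 3.52% of all probe sets tested, a contrast on which the rule chose the members. The members' mean signals ran from 54.8 to 1136 with a median of 136, beside a median of 128 over probe sets with a mean of 50 or more. Over the 66 members, the mean change of H minus L, negative for all, and the log2 of the mean signal had a Pearson r of 0.08 and a Spearman rho of 0.05. This is a description across probe sets that share the same arrays.

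**Figure D4:**
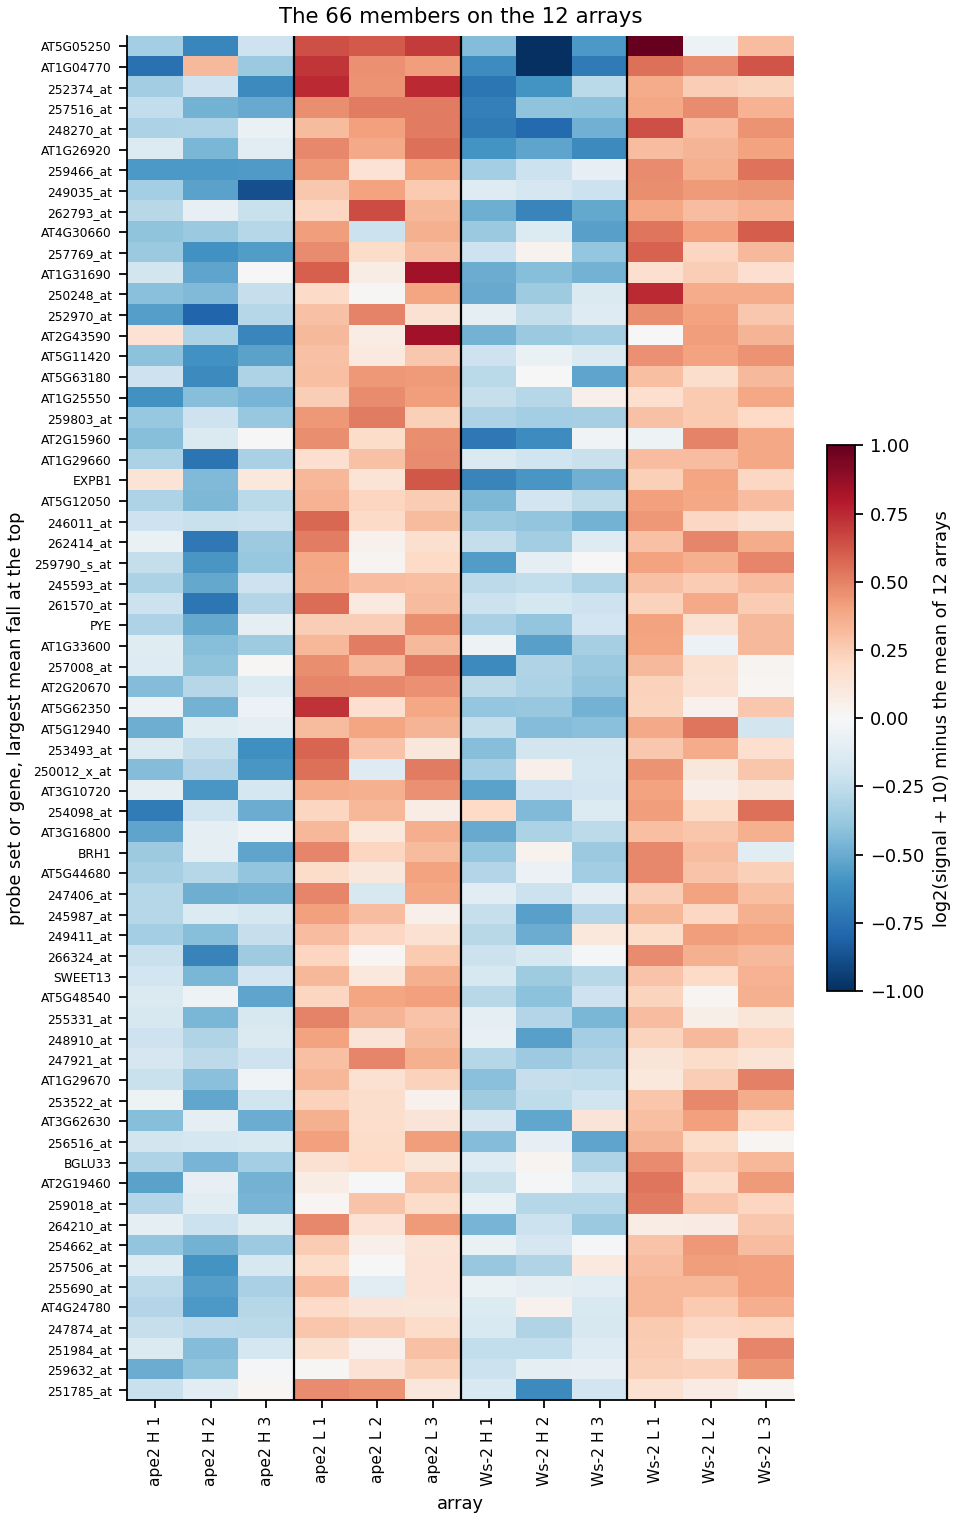
Each row is 1 of the 66 members and each column 1 array, coloured by log2(signal + 10) minus the row's mean over the 12 arrays, with the largest mean fall at the top. The H columns are mostly blue and the L columns mostly red in both genotypes, with the strongest colours in the top rows.

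The interaction is the change in ape2 minus the change in Ws-2. Both changes chose the members, so the members' interactions are given as a description, and they do not test whether the fall depended on the genotype. The largest was +0.57 ± 0.30 (SE) in AT1G04770, followed by +0.48 ± 0.14 in 248270_at, and in both the fall was smaller in ape2. In AT1G25550 it was -0.44 ± 0.15, a larger fall in ape2, and in EXPB1 +0.42 ± 0.21, a smaller one. Limma called 0 of the 66 members, beside 0.0186% of all probe sets tested, and 3 had an unadjusted p under 0.05, beside 7.64% of all probe sets. The rule affects both counts, and nothing is read from them.

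Between the genotypes, the rule limited the mean difference over L and H but set no limit in each condition. In H the members' differences ran from -0.41 to 0.55. The differences in L and H make up the limited mean, so these values are also a description. In H, limma called 9 members, beside 10.5% of all probe sets tested, and in L it called 2, beside 9.79%. Nothing is read from these counts. In H, ape2 was above Ws-2 for EXPB1, by 0.51 ± 0.15 (SE), for AT1G26920, by 0.35 ± 0.09, and for the probe sets 248270_at and 262793_at. It was below Ws-2 for AT5G11420, with a difference of -0.38 ± 0.07 (SE), for AT4G24780, with -0.30 ± 0.08, and for 259466_at, 249035_at and 254662_at. In L the called members were AT2G20670, at 0.34 ± 0.09 (SE), and 247921_at, at 0.23 ± 0.07, both higher in ape2. AT2G20670 read 85.5, 95.9 and 107 in ape2 H, against 171, 169.8 and 167 in ape2 L, and 97.4, 93.4 and 88.0 in Ws-2 H, against 141, 133 and 120.5 in Ws-2 L. The ape2 arrays were thus above the Ws-2 arrays in L and overlapped them in H.

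**Figure D5:**
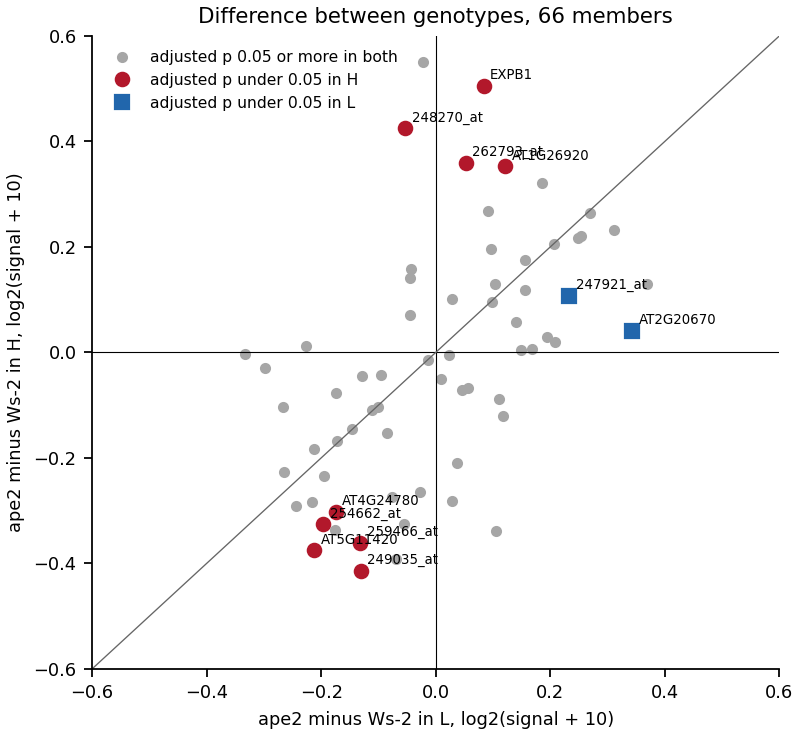
Difference of ape2 minus Ws-2 on the log2(signal + 10) scale in H (vertical) against L (horizontal) for the 66 members; red circles passed an adjusted p under 0.05 in H, blue squares in L, and the grey line marks equal differences. The 4 red circles in the upper part, EXPB1 among them, lie above 0 in H and near 0 in L.

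The spread within groups is a measure that the rule did not use. Deviations from group means over the 12 arrays had a median Pearson r of 0.09 over the 2145 pairs of members, with 16.1% of the pairs above 0.5. Over all pairs of probe sets with a mean signal of 50 or more, the median was 0.00 and the share 10.3%. These pairs share the same arrays, and the members' mean deviation was lowest in replicate 2 of ape2 in L, at -0.08, and in replicate 2 of ape2 in H, at -0.06. The probe sets tested with 1 gene named were ranked by their likeness to AT5G05250 in these deviations, and the 5 highest were AT4G10970 (r = 0.90), EXGT-A3 (r = 0.89), AT1G49975 (r = 0.88), LOV1 (r = 0.87) and AT1G60010 (r = 0.87), over 12 arrays. The ranking picks the highest of many values over few arrays, AT5G05250 deviates most in replicate 1 of Ws-2 in L, and the r values carry no test. None of the 5 is a member.

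Near the limits, among probe sets with 1 gene named, AT4G24780 at -0.40, AT1G25550 at -0.43 and AT2G20670 at -0.46 were just inside in Ws-2, while AT3G45260 at -0.39, AT5G48900 at -0.39 and AT5G15750 at -0.37 were just outside. In ape2, EXPB1 at -0.43, AT1G29670 at -0.47 and AT2G19460 at -0.48 were inside, and AT3G07010 at -0.39, AT1G75900 at -0.39 and AT3G05730 at -0.36 outside. AT5G48900 and AT3G07010 are further pectate lyase-like genes and AT1G75900 is a further GDSL-type lipase gene. They were picked by their nearness to a limit, and the rest of these families was not examined. By the mean genotype difference, EXPB1, AT5G11420 and AT1G31690 were inside at sizes of 0.29, 0.29 and 0.27, and AT3G56200, AT3G56360 and MSRB6 outside at 0.30, 0.31 and 0.32. By mean signal, AT3G16800, AT5G12940 and AT2G19460 were inside at 54.8, 55.2 and 55.9, and AT5G02890, AT5G46920 and AT1G64380 outside at 49.3, 48.5 and 48.2.

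Without a limit on the genotype difference, 149 probe sets met the limits on the change in both genotypes, of which 58 were higher in ape2 by over 0.3 and 25 lower. The mirrored rule, for genes higher in H, found 33 probe sets. Of the 66 members, 36 met the rule in all 12 omissions of a single array, and 15 of these have 1 gene named. With replicate 2 of ape2 in L and in H both left out, 53 met it.

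Lists of 201 genes were set against the members. Those with a named probe set were for light harvesting, the clock, cold, shade, auxin, growth, sulfur, starch and flavonoids, and the other lists had none. The annotation names a probe set for 13 of the genes, and 0 of these are members. With 66 members among 22746 probe sets, few or none would be looked for among 13, so nothing is read from this count. Most listed genes have no named probe set, and 37 members have no gene name. The cold-regulated gene COR15B, which met the rule, was left out by name. Of the 12 tested, limma called the dehydrin gene LTI30 lower in ape2, by -0.65 on the log2 scale, and the starch breakdown gene DPE1 higher in Ws-2, by 0.46. The markers RCA, FAMA, EXPA7 and AUR1, for mesophyll, guard cells, root hairs and dividing cells, were not called between H and L by limma, and 0 of them had an unadjusted p under 0.05.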

How the data were processed

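Transcript levels were measured on 12 single-colour oligonucleotide arrays hybridised with biotin-labelled total RNA, 3 for each of 4 groups taken from titles and characteristics. The authors deposited 1 linear signal intensity for each probe set and array, and per the submitters' processing notes they used MAS5, whose version is not given. The values show that each array's 2% trimmed mean had been brought to 100, so a change shared by most transcripts would not show. MAS5 corrects for mismatch probes, which makes dim signals noisy. A probe set that matches related transcripts reports their sum, and 2 members carry such a suffix.

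The rule was applied to group means of log2(signal + 10), an offset that understates changes of dim transcripts. Genes were named from GEO's platform annotation, which gives 1 gene for 13513 probe sets, several for 503 and none for 8730. Of those with 1 gene, 13484 matched the RefSeq gene table of TAIR10.1.

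The 16095 probe sets that reached a signal of 20 on 3 or more arrays were tested, among them all 66 members. In limma 3.58.1 under R 4.3.3, the means of the 4 groups were estimated from the 12 arrays together, and variances were moderated toward a robust trend with brightness. Tests were two-sided with Benjamini-Hochberg adjustment across the 16095, and a call means an adjusted p under 0.05. The number of arrays limits the precision.

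The members, gene lists and named families were chosen with earlier results of these data known. Genes named are the 14 members with 1 gene and the largest mean fall, members with a symbol and those 3 inside and 3 outside each limit. The 6 other members with 1 gene were added after their values were seen. Promoter and protein sequences were not used here.

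Alternatives were the offset, the scaling, the filter, the prior variance, array weights, a replicate block, the limits of the rule and each array left out. Same-numbered arrays of different groups correlated in their deviations by -0.28 to 0.37 over 18 pairs, and 3 pairs were over 0.1. Between L and H of the same genotype, r was 0.13, 0.37 and 0.07 in ape2 and 0.12, 0.04 and 0.04 in Ws-2. All values below 0 were between genotypes. Whether L and H are paired within a genotype was not settled, and the main fit took no pairs.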

Additional observations from a re-analysis of the deposited data

How the results depend on the processing

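With an offset of 32 in place of 10 the members' median change was -0.52 in ape2 and -0.49 in Ws-2, and with each array left out in turn it ran from -0.65 to -0.57 in ape2 and from -0.58 to -0.54 in Ws-2. The number of probe sets that met the rule was 14 with a limit of -0.6 on the change, 145 with -0.3, 42 with a mean signal of 100 or more, 149 with no limit on the genotype difference, and 63 to 76 with 1 array left out. With a constant prior variance limma called 34 members lower in Ws-2, 1 between the genotypes in L and 4 in H, and with array weights it called 1 in L. Leaving out 1 array gave 35 to 57 members called lower in ape2, with 35 without replicate 1 of ape2 in L. It gave 34 to 55 in Ws-2, with 34 without replicate 1 or replicate 3 of Ws-2 in L. Between the genotypes it gave 0 to 2 in L, with 0 without replicate 2 or 3 of Ws-2 or replicate 3 of ape2 in L. In H it gave 4 to 11, with 4 without replicate 3 of Ws-2. The interaction was called for 0 members in every omission. With the replicate block, which joins equal numbers across all groups, 55 members were called lower in ape2, 52 in Ws-2, 1 between genotypes in L and 10 in H. Whether equal numbers mark pairs was not settled. Of 1276 values of single named members under alternatives, 0 changed direction, 138 lost their call and 38 gained one. The rule asked for a fall in both genotypes on the same arrays, so a kept direction was nearly fixed in advance and supports nothing further. Omitting an array leaves fewer samples, and the cause of the other shifts was not tested.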
